A study of Mus musculus with 12 samples.

Results

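The genes described here are 43 mouse genes of the amino acid response: factors of the stress pathway that ends in ATF4, enzymes that make serine, one-carbon units, asparagine and related amino acids, amino acid carriers of the cell surface, and cytosolic aminoacyl-tRNA synthetases. They were chosen by symbol and matched 44 of the 56748 genes in the deposited table, because Ddit3 has 2 identifiers. Of the 43 symbols, 41 passed the filter on low counts and were tested together with all other expressed genes, 14794 in total. They fall into 5 roles, with 9 factors and stress effectors, 7 enzymes of serine and one-carbon metabolism, 7 other amino acid enzymes, 7 carriers and 13 synthetases.

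RNA was sequenced from Ba/F3 cells, an established mouse line described as pro-B cells, which normally grows only with interleukin-3 (IL-3). All cells carried NRAS G12D, an active RAS protein, and were harvested on day 3 after sorting into medium lacking IL-3, which was renewed once; the day of sorting is day 0. The 4 groups of 3 libraries each differed in the construct added: ETV6 I209S P214L, ETV6 P214L or ETV6 WT, each co-expressed with the fluorescent protein ZsGreen through an internal ribosome entry site, or ZsGreen alone as the control. ETV6 is a transcriptional repressor of the ETS family; by the study's design P214L creates a nuclear export sequence, I209S breaks it, and the question was whether the double mutant resembles ETV6 WT. No separate clone, promoter or culture is named for any group, so p-values measure the spread between these libraries, which may be technical.

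As background, a shortage of an amino acid leaves uncharged tRNA, which activates the kinase GCN2. GCN2 phosphorylates the translation factor eIF2, most protein synthesis slows, and the mRNA of the transcription factor ATF4 is translated better. ATF4 then binds composite C/EBP-ATF elements and raises genes that make, import or charge amino acids, while DDIT3 (CHOP), TRIB3 and PPP1R15A (GADD34) feed back on or extend the response. Because ATF4 is controlled largely in translation, the level of its mRNA is not a measure of its activity.

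Library totals ran from 14301683 to 18607595 counts, and 18S ribosomal RNA took 1.35% to 5.90% of them. Its share was lowest in ETV6 I209S P214L 1 (1.35%) and ETV6 WT 1 (1.58%). These libraries also read higher than their group for most of the genes described here: I209S P214L 1 was the highest of its 3 libraries for 27 of the 41 tested genes, and WT 1 for 28 of 41. The share over all genes was not computed, so this is not read as a trait of the genes described here. Counts on the mouse Etv6 gene averaged 99.1 ± 12, 103 ± 4.64 and 109 ± 11.4 CPM (counts scaled to a common library size with TMM factors) in I209S P214L, P214L and WT cells, against 81.7 ± 5.03 CPM in ZsGreen cells (SD, n = 3 each); the labels do not say whether the construct holds mouse or human ETV6. The defining B-cell markers were nearly absent in every group: Igll1, Rag1 and Dntt had no count, and the 11 B lineage markers summed to 6.69 to 16.1 CPM over the 12 libraries. The 6 T lineage markers reached at most 1.12 CPM and the 6 fibroblast markers at most 0.508 CPM in any library.

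Most of the genes were lower in ETV6 WT than in ZsGreen cells. Against ZsGreen cells, 27 of the 41 tested genes fell and 3 rose with ETV6 WT, while over all genes 18.2% fell and 19.5% rose. The median log2 fold change of the 41 was -0.41, against 0.03 over all genes. The largest falls were of the serine pathway enzymes Phgdh and Psat1, the mitochondrial folate enzyme Mthfd2 and the asparagine synthetase Asns, each to well under the ZsGreen level, and 12 of the 13 tRNA synthetases fell too. A call here is an adjusted p under 0.05 in edgeR's quasi-likelihood test with Benjamini-Hochberg adjustment over all tested genes, and that test gives each adjusted p below where no other tool is named. In bulk RNA, fewer cells that express a gene and less RNA of it per cell cannot be told apart.

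ETV6 I209S P214L gave counts close to those of WT, and ETV6 P214L called far fewer genes. With I209S P214L, 28 of 41 genes fell and 4 rose against ZsGreen cells, with 20.7% of all genes falling and 20.8% rising, and the median of the 41 was -0.50 against 0.03 over all genes. With P214L, 6 of 41 fell (Psat1, Ppp1r15a, Aars, Tars, Wars and Yars) and 0 rose, beside 1.61% falling and 3.47% rising over all genes, and the median was -0.19 against 0.01. At an unadjusted p under 0.05, edgeR gave 20 lower and 1 higher gene with P214L; DESeq2 called 10 lower and 0 higher, and limma-voom 7 lower and 0 higher. The P214L count depended on single libraries: it was 2 without P214L 1, 3 without P214L 3, ZsGreen 1 or ZsGreen 2, and 11 without WT 1, a library of neither group. The 3 comparisons with ZsGreen cells share those 3 control libraries, so they are given side by side only.

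**Figure D1:**
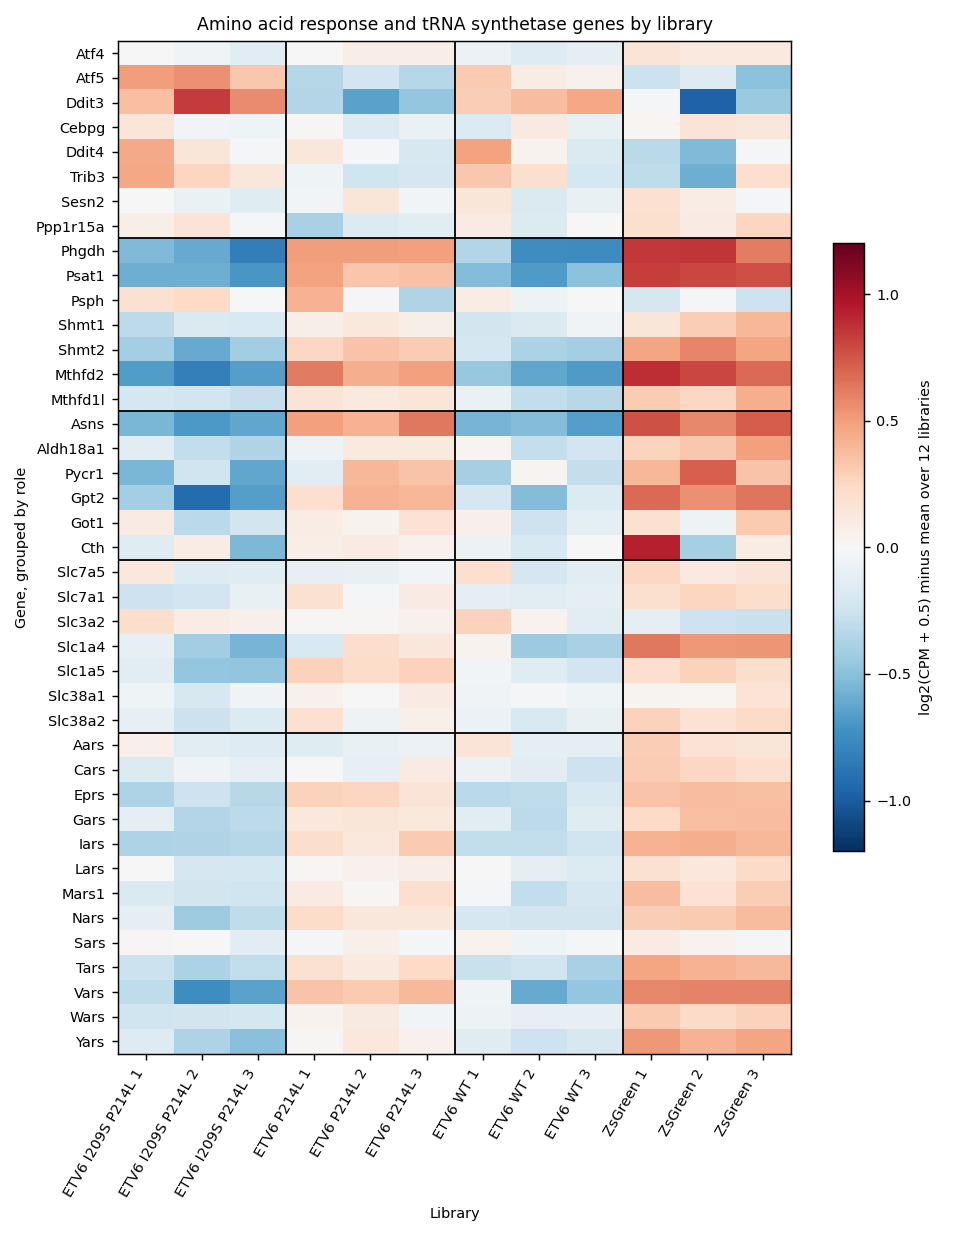
Level of each of the 41 tested genes (down the page, in role order, with lines between roles) in each of the 12 libraries (across), as log2(CPM + 0.5) minus the gene's mean over the 12 libraries; red is above and blue below that mean. Phgdh, Psat1, Shmt2, Mthfd2, Asns and most synthetases are blue in the I209S P214L and WT libraries and red in the P214L and ZsGreen libraries, whereas Atf5 and Ddit3 show the opposite colours.

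Among the factors and stress effectors, 2 of 8 tested rose and 1 fell with ETV6 WT, close to the shares of all genes (19.5% higher and 18.2% lower). Atf4 (ENSMUSG00000042406, mm39 chromosome 15, 80139385 to 80141742) encodes the factor itself. It had 244, 237 and 222 CPM in I209S P214L libraries, 243, 257 and 256 CPM with P214L, 233, 219 and 225 CPM with WT and 271, 264 and 264 CPM with ZsGreen. All 9 libraries with an ETV6 construct lay below the 3 ZsGreen libraries, by a small margin. The log2 fold change against ZsGreen cells was -0.18 ± 0.06 (SE; adjusted p = 0.0193, a call lost without I209S P214L 3 and without the low-count filter, with adjusted p at most 0.104 over the 22 alternatives in tool, scaling, filter, fit and libraries) with I209S P214L, -0.08 ± 0.06 (adjusted p = 0.549) with P214L and -0.24 ± 0.06 (adjusted p = 0.00358) with WT. Per length, Atf4 was nevertheless the most abundant of the 43 genes in the control, with a mean deposited FPKM, a unit scaled by gene length and depth, of 112 in ZsGreen cells.

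Ddit3 (ENSMUSG00000025408, mm39 chromosome 10, 127126643 to 127132157) encodes CHOP, a factor induced by ATF4 and linked to cell death under prolonged stress. It had 26.3, 36.7 and 30.3 CPM in I209S P214L libraries, 15.9, 12.8 and 14.6 CPM with P214L, 25, 26.4 and 28.2 CPM with WT and 20.0, 10.1 and 14.9 CPM with ZsGreen. The I209S P214L and WT libraries were all above every P214L and ZsGreen library. Ddit3 rose with I209S P214L (log2 fold change 1.04 ± 0.19, adjusted p = 0.000185) and with WT (0.82 ± 0.19, adjusted p = 0.0018), and stood at -0.06 ± 0.19 with P214L (adjusted p = 0.914). It overlaps Mars1 by 68 bases on the other strand and its second identifier (ENSMUSG00000116429), annotated at the same place, had 0 counts; whether shared reads were dropped is not given in the sources used here.

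Atf5 (ENSMUSG00000038539, mm39 chromosome 7, 44461680 to 44466082) encodes a relative of ATF4 that is controlled in translation in the same way. It had 44.7, 46.1 and 39.6 CPM in I209S P214L libraries, 24.7, 26.7 and 24.6 CPM with P214L, 39.1, 33.6 and 32.6 CPM with WT and 26.3, 28.1 and 22.2 CPM with ZsGreen. Here the I209S P214L libraries were the highest of all, above each WT library, and the WT libraries lay above each P214L and ZsGreen library. The log2 fold change against ZsGreen cells was 0.77 ± 0.11 (adjusted p = 2.82e-05) with I209S P214L, -0.01 ± 0.12 (adjusted p = 0.981) with P214L and 0.46 ± 0.11 (adjusted p = 0.00364) with WT. Atf5 overlaps Nup62 by 571 bases on the other strand, and Nup62 had 28706 counts against 6423 of Atf5. Since the strand setting of the counting is not known, part of the Atf5 value may be Nup62 reads.

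Ddit4, an inhibitor of the growth kinase complex mTORC1, had 37.2, 30.1 and 26.8 CPM in I209S P214L libraries, 29.8, 26.8 and 23.6 CPM with P214L, 38.1, 27.8 and 23.9 CPM with WT and 21.5, 18.7 and 26.8 CPM with ZsGreen. The groups overlapped in each comparison. It rose with I209S P214L (0.49 ± 0.17, adjusted p = 0.0306), a call lost without I209S P214L 1, I209S P214L 2, ZsGreen 1 or ZsGreen 2 (adjusted p at most 0.151 over the 22 alternatives), and stood at 0.42 ± 0.17 with WT (adjusted p = 0.0658). The difference between these 2 results was itself small, 0.07 ± 0.17 on the log2 scale for I209S P214L against WT.

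Ppp1r15a, the stress-induced subunit that directs a phosphatase to eIF2, had 79.5, 84.8 and 74.1 CPM in I209S P214L libraries, 57.5, 67.6 and 68.6 CPM with P214L, 80.7, 67.3 and 75.7 CPM with WT and 86.3, 80.9 and 90.7 CPM with ZsGreen. The P214L libraries were all below the ZsGreen and I209S P214L libraries but overlapped the WT libraries. It fell with P214L against ZsGreen cells (-0.41 ± 0.09, adjusted p = 0.0101; adjusted p = 0.0803 without P214L 1) and rose with I209S P214L against P214L (0.30 ± 0.09, adjusted p = 0.0151; adjusted p at most 0.113 over the 22 alternatives, with the call lost without I209S P214L 2 or P214L 1). Its gene overlaps Tulp2, which had 571 counts against its 15105, by 717 bases.

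The remaining factors did not pass the test in any pairwise comparison. Trib3, a pseudokinase that restrains ATF4 and CHOP, averaged 12.2 ± 1.5, 8.75 ± 0.651, 10.8 ± 2.06 and 8.54 ± 2.56 CPM in I209S P214L, P214L, WT and ZsGreen cells, with a log2 fold change of 0.51 for I209S P214L against ZsGreen (adjusted p = 0.0593). Cebpg, a dimer partner of ATF4, and Sesn2, a leucine sensor, moved by at most 0.18 on the log2 scale in size in any comparison. Chac1, which degrades glutathione, had 0 counts in all 12 libraries; 3 counts over a group's libraries, the limit a count of 0 allows, would be 0.0609, 0.0643, 0.0569 and 0.0608 CPM in I209S P214L, P214L, WT and ZsGreen cells, which covers counting error only.

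Most serine and one-carbon enzymes fell with I209S P214L and with ETV6 WT, Psph excepted. With ETV6 WT, 6 of 7 fell against ZsGreen cells, beside 18.2% of all genes, with a median log2 fold change of -0.84 over the 7. With I209S P214L the same number fell, beside 20.7% of all genes, with a median of -0.98. With P214L 1 fell, beside 1.61% of all genes, with a median of -0.21. PHGDH catalyses the committed step of serine synthesis, PSAT1 the next step and PSPH the last, while SHMT1 and SHMT2 turn serine into glycine and a folate-bound one-carbon unit, which MTHFD2 and MTHFD1L process in mitochondria.

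Phgdh (ENSMUSG00000053398, mm39 chromosome 3, 98220486 to 98247306) had 95.5, 91.2 and 77.8 CPM in I209S P214L libraries, 196, 196 and 195 CPM with P214L, 109, 82.2 and 81.9 CPM with WT and 251, 252 and 212 CPM with ZsGreen. I209S P214L and WT libraries were mixed at the bottom, P214L libraries were next and ZsGreen libraries highest, with no overlap between these levels. Phgdh was 2.62-fold lower with WT than with ZsGreen (log2 fold change -1.39 ± 0.11, adjusted p = 1.12e-08), and its log2 fold change was -1.43 ± 0.11 with I209S P214L (adjusted p = 6.41e-09). With P214L it was -0.28 ± 0.10, which did not pass the test (adjusted p = 0.134).

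Psat1 (ENSMUSG00000024640, mm39 chromosome 19, 15882042 to 15924701) had 113, 112 and 104 CPM in I209S P214L libraries, 236, 212 and 216 CPM with P214L, 118, 106 and 120 CPM with WT and 300.3, 294 and 289 CPM with ZsGreen. The order of the groups was that of Phgdh, again with no overlap between the P214L libraries and any other group. It was the serine enzyme that passed the test with all 3 constructs against ZsGreen cells, at -1.43 ± 0.07 with I209S P214L (adjusted p = 3.15e-11), -0.41 ± 0.07 with P214L (adjusted p = 0.00111) and, for WT, -1.36 ± 0.07 (adjusted p = 6.92e-11).

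Mthfd2 (ENSMUSG00000005667, mm39 chromosome 6, 83282673 to 83302890) had 27.3, 24.7 and 27.6 CPM in I209S P214L libraries, 67.8, 59.6 and 62.1 CPM with P214L, 31.9, 28.4 and 27.2 CPM with WT and 81.5, 76.7 and 70.6 CPM with ZsGreen. The P214L and ZsGreen libraries stood apart from the others by more than the whole range within any group. Its log2 fold change against ZsGreen cells was -1.52 ± 0.10 with I209S P214L (adjusted p = 9.48e-10), -0.27 ± 0.09 with P214L (adjusted p = 0.104) and, for WT, -1.39 ± 0.10 (adjusted p = 3.57e-09).

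The smaller falls with WT were of Shmt2 (-0.84), Mthfd1l (-0.57) and Shmt1 (-0.43), each at an adjusted p of at most 0.000311. Shmt2 averaged 119 ± 9.05, 204 ± 6.24, 131 ± 9.69 and 236 ± 10.9 CPM in I209S P214L, P214L, WT and ZsGreen cells, so that the mitochondrial enzyme moved more than its cytosolic counterpart Shmt1, at 67.5 ± 3.69, 84.0 ± 1.74, 71.5 ± 4.78 and 96.3 ± 8.53 CPM. That difference between the 2 enzymes was not tested. Psph, the last enzyme of serine synthesis, did not pass the test in any comparison (0.17 ± 0.21 for WT against ZsGreen, adjusted p = 0.561); it is low, at 6.96 ± 0.669 CPM in ZsGreen cells, and overlaps by 452 bases Cct6a, which had 74334 counts against its 1555.

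**Figure D2:**
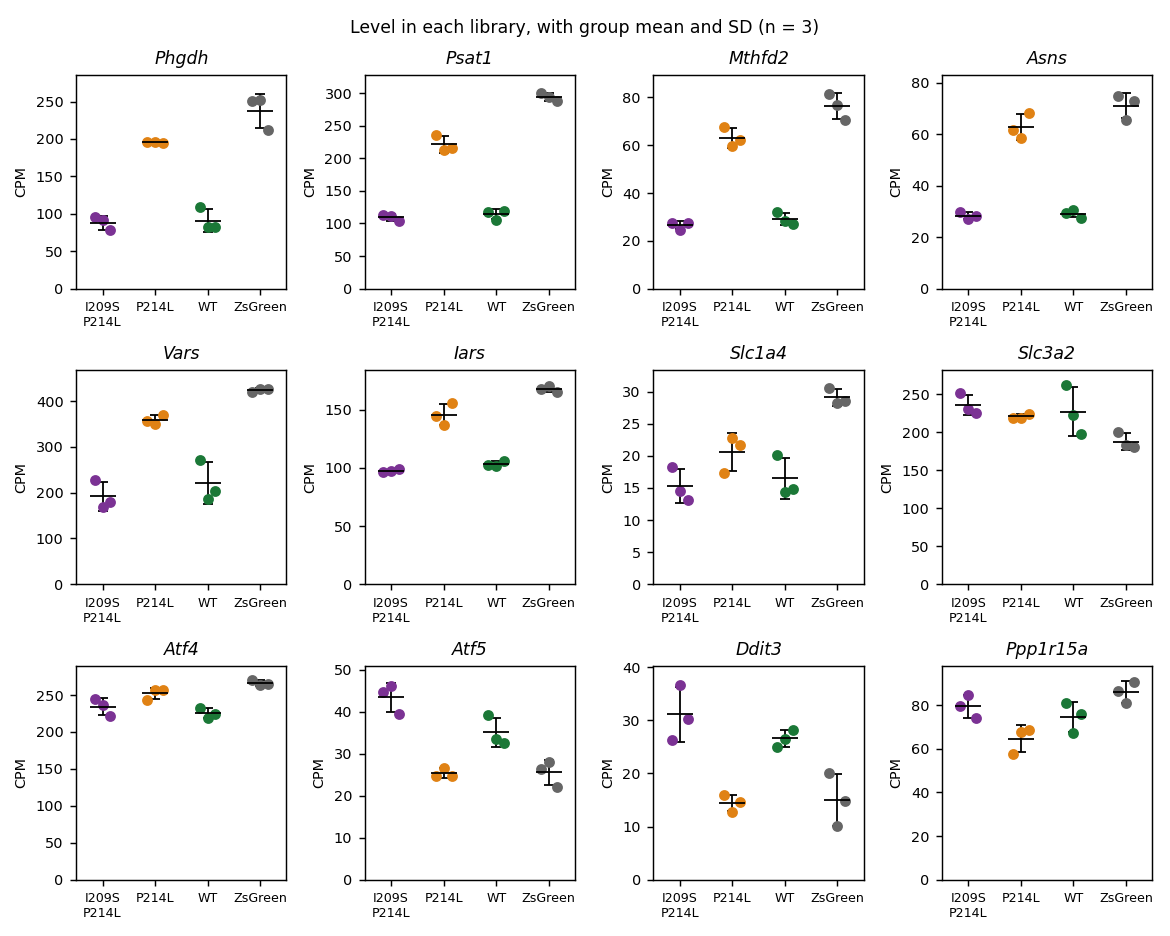
CPM of 12 named genes in each library (points), by group from left to right I209S P214L, P214L, WT and ZsGreen, with the group mean and SD (lines, n = 3); each vertical axis starts at 0. Phgdh, Psat1, Mthfd2 and Asns are low with I209S P214L and WT and high with P214L and ZsGreen, Ddit3 and Atf5 show the reverse, and Atf4 moves little.

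Among the other amino acid enzymes, 4 of 6 tested fell with WT and 4 of 6 with I209S P214L (medians -0.64 and -0.83). Of all genes, 18.2% and 20.7% fell in these comparisons. With P214L, edgeR called 0 of 6, with 1 lower at an unadjusted p under 0.05; DESeq2 called 1 lower and limma-voom 0 (median -0.28). Asns (ENSMUSG00000029752, mm39 chromosome 6, 7675169 to 7693254), which makes asparagine from aspartate and glutamine and is a classic ATF4 target, had 29.9, 27.1 and 28.4 CPM in I209S P214L libraries, 61.7, 58.7 and 68.3 CPM with P214L, 29.6, 30.5 and 27.5 CPM with WT and 75.0, 65.6 and 72.9 CPM with ZsGreen. The I209S P214L and WT libraries formed 1 low band, and the P214L libraries overlapped the lowest ZsGreen library. Asns fell with I209S P214L (-1.32 ± 0.09, adjusted p = 3.42e-09) and with WT (-1.28 ± 0.09, adjusted p = 5.99e-09), and stood at -0.18 ± 0.09 with P214L (adjusted p = 0.312).

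Gpt2, the mitochondrial alanine aminotransferase, averaged 12.7 ± 2.33, 25.7 ± 2.11, 16.4 ± 2.18 and 31.3 ± 1.46 CPM in I209S P214L, P214L, WT and ZsGreen cells and fell by 0.93 ± 0.14 on the log2 scale with WT against ZsGreen (adjusted p = 3.65e-05). Aldh18a1, which opens proline synthesis, fell by 0.52 ± 0.09 (adjusted p = 0.000209) and Pycr1, which closes it, by 0.75 ± 0.23 (adjusted p = 0.0152). The Pycr1 call, at 5.15 ± 0.891 CPM in WT and 8.67 ± 1.32 CPM in ZsGreen cells, was lost without WT 1, WT 3 or ZsGreen 2 (adjusted p at most 0.0656 over the 22 alternatives). Got1, an aspartate aminotransferase, and Cth, which makes cysteine, did not pass the test in any comparison; Cth had 4.29, 1.40 and 2.16 CPM in ZsGreen libraries, so that 1 library set its mean. Cbs, which feeds Cth, had 7, 3, 2 and 0 counts in all in I209S P214L, P214L, WT and ZsGreen cells and was not tested.

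The starts of these genes can be shown beside the values, because ATF4 acts through a short element. RefSeq promoters (GRCm38.p6, 250 bases before to 50 after the start) were found for 34 of the 43 genes and searched on both strands for TGATGNAA, the core of the C/EBP-ATF element. It was present for 11 of the 34 genes (32.4%), against 1219 of 27025 genes with a promoter in the table (4.51%); in the 250 bases before the start alone it was present for 7 of 34 (20.6%) against 3.91%. The genes were chosen as ATF4-linked, so this share is a description of the choice. The holders were Trib3, Chac1, Asns, Pycr1, Got1, Slc1a4, Aars, Gars, Iars, Tars and Yars. Of the 10 tested holders, 8 fell with WT against ZsGreen and the rest did not pass the test (median -0.68). Of 22 tested genes with a promoter but without these letters, 13 fell and 3 rose (median -0.34). Over all genes, 18.2% fell and 19.5% rose in this comparison. The difference between holders and other genes was not tested. The E-box CACGTG was in 5 of 34 promoters (14.7%, against 8.09% of genes) and the ETS letters CCGGAAGT in 2 of 34 (5.88%, against 4.31%). All 4 tested holders of the E-box fell with WT (median -0.61), and of 28 tested genes without it 17 fell and 3 rose (median -0.39). Aars, Iars and Tars held both the E-box and TGATGNAA. Of the 2 holders of the ETS letters, 1 fell and 1 rose. These differences were not tested either. A match is a stretch of letters and not a bound site.

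The 6 holders with the largest change with WT are printed from 120 bases before to 30 after the start, 5′ to 3′ on the strand of the gene, with the match to TGATGNAA or its reverse complement in capitals, to show where the element lies. Coordinates are those of GRCm38.p6 and not of mm39. The regions are chr6:7693180-7693329 (minus strand) for Asns, chr11:20332684-20332833 (minus strand) for Slc1a4, chr11:120643719-120643868 (minus strand) for Pycr1, chr15:11399629-11399778 (minus strand) for Tars, chr13:49682010-49682159 (plus strand) for Iars and chr4:129189783-129189932 (plus strand) for Yars.
Asns: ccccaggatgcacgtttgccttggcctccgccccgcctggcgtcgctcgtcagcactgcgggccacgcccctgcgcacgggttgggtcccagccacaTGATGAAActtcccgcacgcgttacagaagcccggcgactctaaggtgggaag
Slc1a4: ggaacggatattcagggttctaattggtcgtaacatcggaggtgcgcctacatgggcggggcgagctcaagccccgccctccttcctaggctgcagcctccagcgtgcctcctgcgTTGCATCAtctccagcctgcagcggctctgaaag
Pycr1: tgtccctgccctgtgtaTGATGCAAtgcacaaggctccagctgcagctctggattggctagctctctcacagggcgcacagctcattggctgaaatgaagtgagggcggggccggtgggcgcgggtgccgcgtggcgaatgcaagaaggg
Tars: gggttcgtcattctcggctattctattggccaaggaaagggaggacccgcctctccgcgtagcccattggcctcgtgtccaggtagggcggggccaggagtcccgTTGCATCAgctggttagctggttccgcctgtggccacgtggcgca
Iars: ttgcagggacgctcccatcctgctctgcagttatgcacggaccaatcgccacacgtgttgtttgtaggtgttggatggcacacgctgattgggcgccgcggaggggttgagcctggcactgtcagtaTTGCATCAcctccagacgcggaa
Yars: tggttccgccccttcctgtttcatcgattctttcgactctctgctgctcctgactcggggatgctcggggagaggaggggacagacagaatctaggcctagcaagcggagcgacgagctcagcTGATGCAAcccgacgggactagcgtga
The match begins 23 bases before the start of Asns, 4 before that of Slc1a4, 103 before that of Pycr1 and 15 before that of Tars, and 7 and 3 bases after the starts of Iars and Yars. In Slc1a4, Tars and Iars it reads on the other strand. The E-box letters CACGTG, left in small letters, begin 19 bases after the start of Tars and 69 before that of Iars.

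The carriers moved less and not all in 1 direction. With WT, 4 of 7 fell and 1 rose (median -0.34), beside 18.2% and 19.5% of all genes. With I209S P214L, 5 fell and 1 rose (median -0.40), beside 20.7% and 20.8% of all genes. The number of carriers that rose was near the share of all genes. With P214L, edgeR called 0 of 7, with 3 lower and 1 higher at an unadjusted p under 0.05, and DESeq2 and limma-voom each called 1 lower (median -0.13). Slc1a4, a carrier of alanine, serine and cysteine whose promoter is printed above, had 18.3, 14.6 and 13.2 CPM in I209S P214L libraries, 17.3, 22.8 and 21.6 CPM with P214L, 20.2, 14.4 and 14.9 CPM with WT and 30.6, 28.2 and 28.5 CPM with ZsGreen. The ZsGreen libraries were above all 9 others, and the other 3 groups overlapped. Its log2 fold change was -0.92 ± 0.16 with I209S P214L (adjusted p = 0.000115), -0.50 ± 0.15 with P214L (adjusted p = 0.0722) and, for WT, -0.82 ± 0.16 (adjusted p = 0.000368).

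Slc3a2, the heavy chain shared by several carriers, was the 1 carrier that rose. It had 251, 230.5 and 226 CPM in I209S P214L libraries, 219, 219 and 224 CPM with P214L, 262, 222 and 197 CPM with WT and 200.3, 183 and 180.3 CPM with ZsGreen. WT and ZsGreen libraries overlapped, while I209S P214L and P214L libraries lay above all ZsGreen libraries. The change was 0.33 ± 0.09 with I209S P214L (adjusted p = 0.00455), 0.23 ± 0.09 with P214L (adjusted p = 0.138) and, for WT, 0.27 ± 0.09 (adjusted p = 0.0163). The call with WT was lost without WT 1, ZsGreen 2 or ZsGreen 3, and in a fit of only the groups compared (adjusted p at most 0.0937 over the 22 alternatives). Slc7a5, the light chain that pairs with it to import large neutral amino acids, did not pass the test in any comparison (-0.21 ± 0.10 for WT against ZsGreen, adjusted p = 0.0975).

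Slc38a1, a glutamine carrier, had 213, 194 and 215 CPM in I209S P214L libraries, 229, 222 and 237 CPM with P214L, 215, 219 and 213.9 CPM with WT and 227, 225 and 247 CPM with ZsGreen. The I209S P214L and WT libraries lay just under the others. It fell with I209S P214L against ZsGreen (-0.17 ± 0.06, adjusted p = 0.0445) and stood at -0.11 ± 0.06 with WT (adjusted p = 0.207). The call with I209S P214L was lost without I209S P214L 2, WT 2 or ZsGreen 3. It was also lost without the low-count filter and in a fit of only the groups compared (adjusted p at most 0.166 over the 22 alternatives). Falls with WT were called for the glutamine carriers Slc1a5 (-0.37) and Slc38a2 (-0.34) and the arginine and lysine carrier Slc7a1 (-0.34), at adjusted p of at most 0.00337.

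The tRNA synthetases, which load each tRNA with its amino acid, fell almost as a group. With WT, 12 of 13 fell (median -0.52), with I209S P214L 12 of 13 (median -0.58), and with P214L 4 of 13 (median -0.20). Of all genes, 18.2%, 20.7% and 1.61% fell in these comparisons. The summed level of the 13 was 1798, 1627 and 1626 CPM in I209S P214L libraries, 2212, 2204 and 2231 CPM with P214L, 1887, 1690.1 and 1739.9 CPM with WT and 2586, 2546 and 2556 CPM with ZsGreen. No P214L or ZsGreen library came within the range of the I209S P214L and WT libraries, and P214L lay between them and ZsGreen.

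Vars (ENSMUSG00000007029, mm39 chromosome 17, 35219963 to 35235298), the valine enzyme, changed most. It had 229, 168 and 180.02 CPM in I209S P214L libraries, 358, 351 and 369.6 CPM with P214L, 272, 186 and 204 CPM with WT and 419.9, 427 and 426 CPM with ZsGreen. I209S P214L 1 and WT 1 were the highest of their groups, still below every P214L library. Its log2 fold change was -1.14 ± 0.12 with I209S P214L (adjusted p = 4.24e-07), -0.24 ± 0.12 with P214L (adjusted p = 0.293) and, for WT, -0.94 ± 0.12 (adjusted p = 4.73e-06).

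Iars, the isoleucine enzyme, had 96.6, 97.2 and 98.7 CPM in I209S P214L libraries, 145, 137 and 156 CPM with P214L, 102, 102 and 106 CPM with WT and 168, 170.1 and 165 CPM with ZsGreen, so that all 4 groups stood apart from each other. The change with WT was -0.70 ± 0.06 (adjusted p = 1.32e-07). Tars, the threonine enzyme, had 126, 116 and 123 CPM in I209S P214L libraries, 171, 164 and 178 CPM with P214L, 125, 128 and 115 CPM with WT and 210.1, 202 and 198 CPM with ZsGreen. Its P214L libraries lay between the ZsGreen libraries and the mixed I209S P214L and WT libraries.

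Yars, Tars, Wars and Aars were the 4 synthetases that also fell with P214L against ZsGreen. The tyrosine enzyme Yars had 88.7, 76.1 and 69.5 CPM in I209S P214L libraries, 99.2, 107 and 102 CPM with P214L, 88.8, 83 and 86.2 CPM with WT and 142, 132 and 137 CPM with ZsGreen; its P214L libraries were nearer to WT than to ZsGreen. The change with P214L was -0.41 ± 0.08 (adjusted p = 0.00508), and this was the 1 of the 4 whose call held with each library left out. Those of Tars (-0.25 ± 0.07, adjusted p = 0.0351), Wars (-0.23 ± 0.06, adjusted p = 0.0411) and Aars (-0.31 ± 0.08, adjusted p = 0.0302) were lost without ZsGreen 1 or without P214L 3, among other libraries. The calls of Tars and Wars were also lost without the low-count filter.

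The alanine enzyme Aars had 281, 246 and 242 CPM in I209S P214L libraries, 244, 253 and 256 CPM with P214L, 300.2, 249 and 248 CPM with WT and 331, 305 and 299 CPM with ZsGreen. WT 1 overlapped the ZsGreen libraries, and the 3 construct groups overlapped each other. Its change was -0.28 ± 0.08 with I209S P214L (adjusted p = 0.00852) and -0.23 ± 0.08 with WT (adjusted p = 0.0306); the WT call was lost without WT 2, WT 3 or ZsGreen 1 (adjusted p at most 0.138 over the 22 alternatives). The tryptophan enzyme Wars had 94.2, 95.5 and 96.1 CPM in I209S P214L libraries, 115, 120.2 and 109 CPM with P214L, 107, 104 and 104 CPM with WT and 138, 131 and 135 CPM with ZsGreen; it overlaps Wdr25 by 544 bases on the other strand. Sars, the serine enzyme, was the synthetase that did not pass the test in any comparison, with 147, 144 and 133 CPM in I209S P214L libraries, 143, 152 and 143 CPM with P214L, 149.9, 139.9 and 144 CPM with WT and 156, 150.03 and 144 CPM with ZsGreen, all in 1 narrow range.

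**Figure D3:**
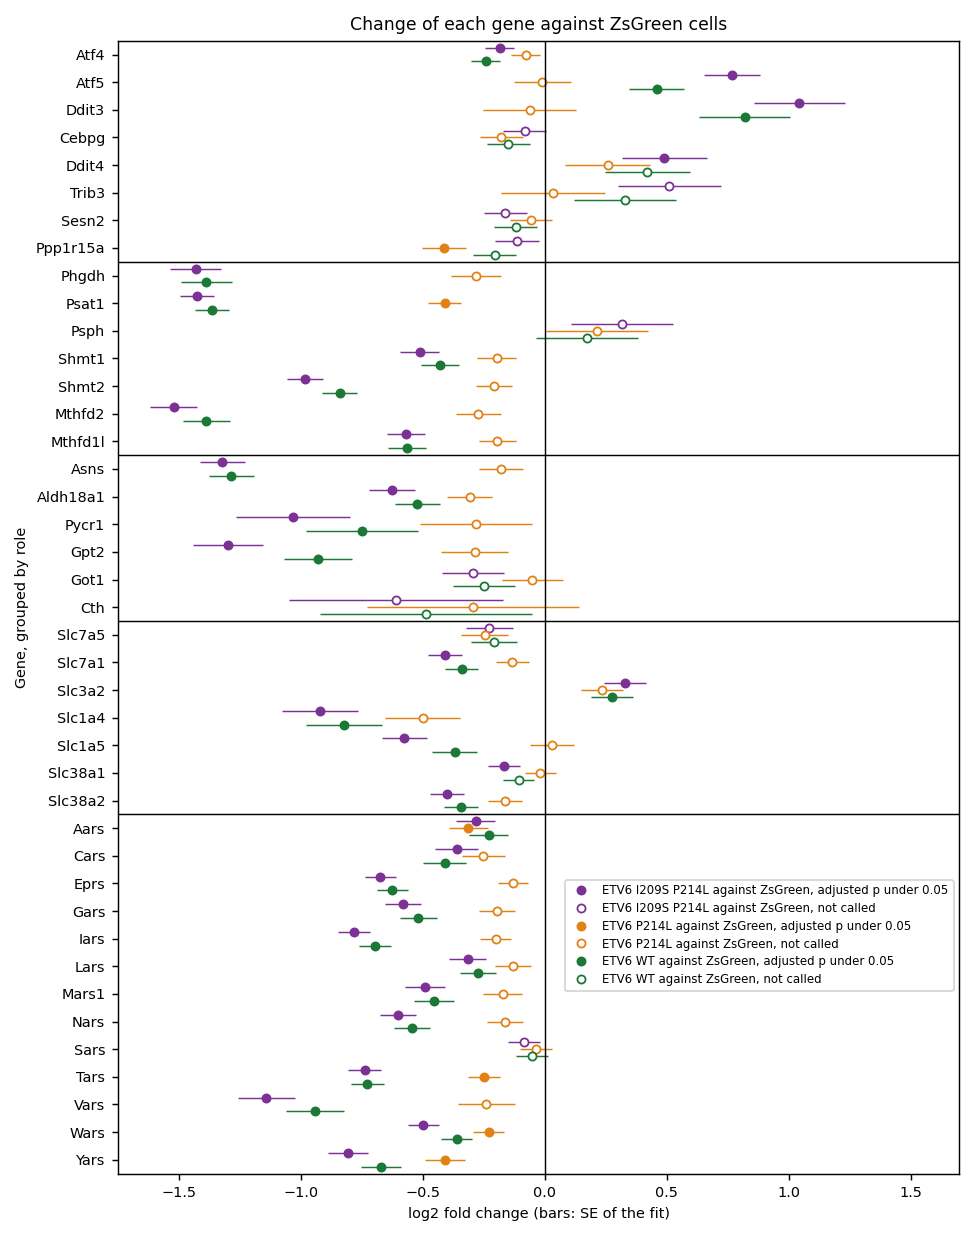
Log2 fold change of each of the 41 tested genes against ZsGreen cells with I209S P214L (purple), P214L (orange) and WT (green), with the SE of the fit as bars; filled points passed the test and open points did not. The I209S P214L and WT points lie close together and far from 0 for Phgdh, Psat1, Mthfd2 and Asns, with the P214L points between -0.41 (Psat1, which passed the test) and -0.18 (Asns).

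The direct comparisons among constructs show where P214L differed from WT. With P214L, 19 of 41 genes were higher and 2 lower than with WT, with 14.6% of all genes higher and 14.6% lower, and the median of the 41 was 0.21 against -0.0017 over all genes. The largest differences were those of Mthfd2 (1.12 ± 0.10, adjusted p = 7.63e-08), Phgdh (1.11 ± 0.10, adjusted p = 2.73e-07), Asns (1.11 ± 0.09, adjusted p = 5.79e-08) and Psat1 (0.95 ± 0.07, adjusted p = 8.84e-09). The 2 genes lower with P214L than with WT were Ddit3 (-0.88 ± 0.19, adjusted p = 0.00144) and Atf5 (-0.47 ± 0.11, adjusted p = 0.00431). By role, 6 of 7 serine and one-carbon enzymes, 8 of 13 synthetases, 2 of 6 other enzymes, 2 of 7 carriers and 1 of 8 factors, Atf4, were higher with P214L. For the factors this was near the share of all genes (14.6%). The Atf4 call (0.16 ± 0.06, adjusted p = 0.0486) was lost without P214L 2, P214L 3, WT 2, WT 3 or ZsGreen 2. It was also lost without the low-count filter and in a fit of only the groups compared (adjusted p at most 0.193 over the 22 alternatives).

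With I209S P214L against P214L, 23 of 41 genes were lower and 3 higher, with 17.1% of all genes lower and 15.9% higher, and the median of the 41 was -0.32 against 0.0042 over all genes. Mthfd2 (-1.25 ± 0.10, adjusted p = 1.62e-08), Phgdh (-1.15 ± 0.11, adjusted p = 1.37e-07), Asns (-1.14 ± 0.09, adjusted p = 3.15e-08), Psat1 (-1.02 ± 0.07, adjusted p = 3.26e-09) and Gpt2 (-1.01 ± 0.14, adjusted p = 2.31e-05) differed most. The 3 higher genes were Ddit3 (1.11 ± 0.19, adjusted p = 0.000155), Atf5 (0.78 ± 0.11, adjusted p = 3.64e-05) and Ppp1r15a, whose call depended on single libraries. The comparison of I209S P214L with P214L and that of WT with ZsGreen use 12 different libraries. Across the 41 genes their log2 fold changes had a Pearson correlation of 0.95 and a Spearman correlation of 0.957, and 37 of 41 had the same sign. This describes the genes, which are not independent replicates. The same correlation over all genes was not computed, so whether the value is particular to these genes is not known. I209S P214L 1 and WT 1 also deviated from their group means together (correlation 0.528 over all tested genes).

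**Figure D4:**
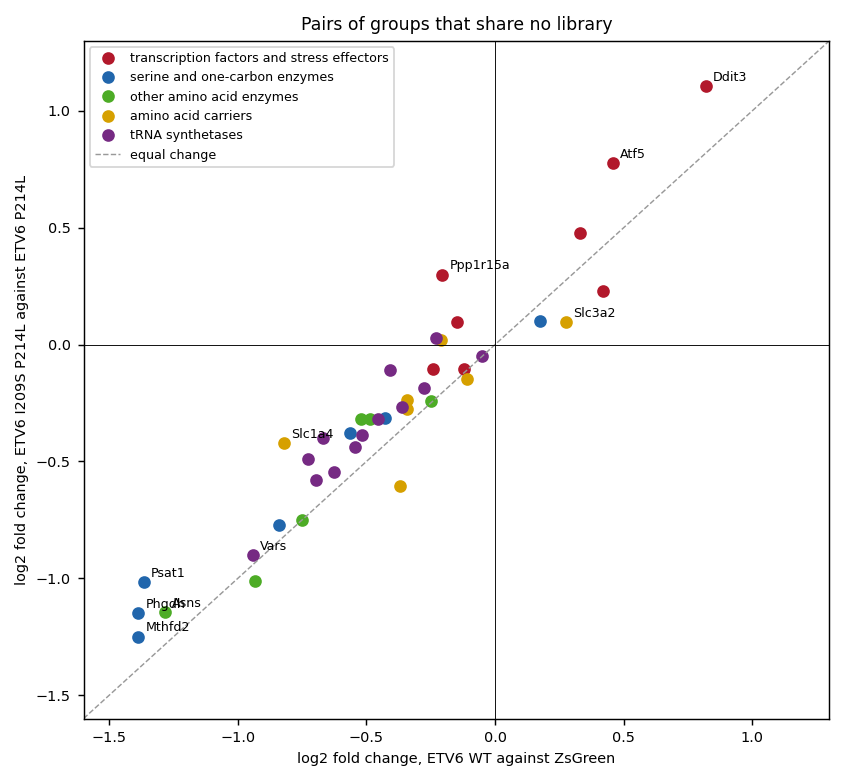
Log2 fold change of each of the 41 genes for WT against ZsGreen (horizontal) and for I209S P214L against P214L (vertical), coloured by role; the dashed line marks equal change. Points run along the line, from Mthfd2, Phgdh, Psat1 and Asns at the lower left to Atf5 and Ddit3 at the upper right, with Ppp1r15a off the trend.

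Between I209S P214L and WT, edgeR called 0 of 41 genes in either direction, while it called 0.0135% of all genes higher and 0.0203% lower; DESeq2 and limma-voom also called 0 of the 41. At an unadjusted p under 0.05 there were 1 higher gene, Atf5, and 3 lower, Gpt2, Slc1a5 and Wars. The median of the 41 was -0.05, against -0.01 over all genes. For 34 of the 41 genes the 95% interval of the log2 difference lay within 0.5 on either side of 0. For Psat1 the difference was -0.06 (95% interval -0.21 to 0.08), for Asns -0.04 (-0.24 to 0.16), for Phgdh -0.04 (-0.26 to 0.18) and for Mthfd2 -0.13 (-0.34 to 0.07). The wider intervals were those of low or variable genes, such as Cth (-1.06 to 0.81) and Pycr1 (-0.78 to 0.22). The interval of Gpt2 (-0.67 to -0.06) lay below 0, although its difference did not pass after adjustment over all genes. The I209S P214L libraries lay wholly above the WT libraries for Atf5 (0.31 ± 0.11) and wholly below them for Wars (-0.14 ± 0.06) and Iars (-0.09 ± 0.06). None of these differences was called. The share of all genes whose libraries separate in this way was not measured, so no difference between the constructs is read from it.

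In a single test of any difference among the 4 groups, 31 of the 41 genes passed, beside 41.0% of all genes. No pairwise comparison called Cebpg, Sesn2, Trib3, Psph, Got1, Cth, Slc7a5 or Sars.

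Other genes of the same pathways followed part of this pattern. Of 10 further genes for cytosolic synthetases and their scaffold, 9 fell with I209S P214L and 9 with WT (medians -0.50 and -0.45). Of all genes, 20.7% and 18.2% fell in these comparisons. With P214L, edgeR, DESeq2 and limma-voom called 0, with 1 lower at an unadjusted p under 0.05 (median -0.08). With WT, Rars (arginine) fell by 0.52, Farsb (a subunit of the phenylalanine enzyme) by 0.61, Kars (lysine) by 0.45 and Hars (histidine) by 0.44 on the log2 scale. Of 17 mitochondrial synthetases, 8 fell with I209S P214L and 9 with WT (medians -0.29 and -0.32), beside 20.7% and 18.2% of all genes, with P214L again at 0 by all 3 tools and 4 lower at an unadjusted p under 0.05. Iars2 (-0.45), Sars2 (-0.49), Yars2 (-0.59) and Aars2 (-0.52) had the smallest adjusted p in the WT comparison. The summed level of the 17 varied widely within each group and overlapped between groups. It ran from 897 to 1114 CPM in I209S P214L, 894 to 1162 CPM in P214L, 833 to 1107 CPM in WT and 847 to 1138 CPM in ZsGreen libraries. Such a range within a group could hide falls of the size of these medians, and the genes behind it were not examined. A difference between the cytosolic and mitochondrial classes was not tested.

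**Figure D5:**
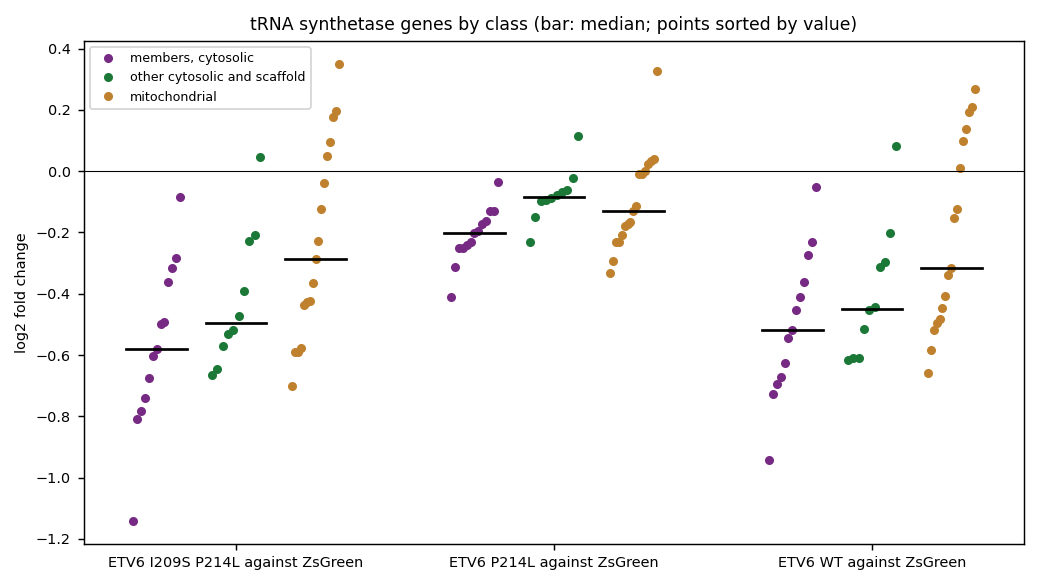
Log2 fold change against ZsGreen cells of the 13 described synthetases (purple), 10 other cytosolic synthetase and scaffold genes (green) and 17 mitochondrial synthetases (brown), sorted by value within each class, with the median as a bar. The medians with I209S P214L are -0.58, -0.50 and -0.29, with P214L -0.20, -0.08 and -0.13, and with WT -0.52, -0.45 and -0.32.

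Of 12 tested genes of the folate and glycine cycle, 7 fell and 2 rose with WT (median -0.35), beside 18.2% and 19.5% of all genes. With I209S P214L, 7 fell and 2 rose (median -0.27), beside 20.7% and 20.8% of all genes. The rises were thus near the share of all genes. With P214L, 1 fell (median -0.11), beside 1.61% of all genes. Mthfd1, the cytosolic trifunctional folate enzyme, averaged 91.4 ± 6.91 CPM in WT and 172 ± 7.26 CPM in ZsGreen cells (log2 fold change -0.91, adjusted p = 1.39e-08). Tyms, which makes thymidylate for DNA, changed by -0.89, the mitochondrial folate carrier Slc25a32 by -0.66 and Dld, a subunit of the glycine cleavage system, by -0.46.

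Of a list of 18 further ATF4-linked genes, 10 were tested. With WT, 3 rose and 2 fell (median 0.13), beside 19.5% and 18.2% of all genes. With I209S P214L, 4 rose and 2 fell (median 0.08), beside 20.8% and 20.7% of all genes. The falls with these constructs were near the share of all genes. With P214L, 1 rose and 1 fell (median 0.02), beside 3.47% and 1.61% of all genes. Slc7a11, the cystine carrier, rose with all 3 constructs. It averaged 159.6 ± 6.51 CPM in WT and 51.4 ± 6.24 CPM in ZsGreen cells, and its log2 fold change was 1.74 ± 0.10 with I209S P214L (adjusted p = 1.63e-10), 1.82 ± 0.10 with P214L (adjusted p = 3.63e-09) and, for WT, 1.64 ± 0.10 (adjusted p = 4.63e-10). For Slc7a11, P214L thus differed from ZsGreen by as much as the other constructs did, unlike for the serine enzymes; P214L against WT was 0.18 ± 0.09 (adjusted p = 0.152). Of the rest, Tspyl2 rose with WT (0.59), and Xpot, which exports tRNA (-0.30), and the amino acid carrier Slc43a1 (-0.30) fell.

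Of 8 kinases of eIF2 and their partners, 2 fell and 1 rose with WT (median 0.01), near the shares of all genes (18.2% lower and 19.5% higher). With I209S P214L 4 fell and 1 rose, beside 20.7% and 20.8% of all genes (median -0.04), and with P214L all 3 tools called 0, with 0 at an unadjusted p under 0.05 (median -0.03). Eif2s1, the phosphorylated subunit of eIF2, fell with WT (-0.48, adjusted p = 4.90e-05), as did the GCN2 activator Gcn1 (-0.25, adjusted p = 0.0182). Impact, an inhibitor of GCN2, rose (0.79, adjusted p = 6.09e-05), and Eif2ak4, which encodes GCN2, stood at -0.24 (adjusted p = 0.0656). Of 15 tested genes of amino acid sensing by mTORC1, 5 rose and 3 fell with WT (median 0.20; 19.5% and 18.2% over all genes) and 6 rose and 3 fell with I209S P214L (median 0.19; 20.8% and 20.7% over all genes), so that the falls were near the share of all genes; with P214L all 3 tools called 0, with 2 higher at an unadjusted p under 0.05 (median 0.0046). Sesn1, of the leucine sensor family, fell with WT (-0.67) and so did Sec13 (-0.35), of a GATOR complex, while Nprl3 (0.62), also of a GATOR complex, and Castor2 (0.67), of the arginine sensor, rose.

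Genes of cycling cells moved with the amino acid genes. All 8 on the list fell with WT and with I209S P214L against ZsGreen (medians -0.76 and -0.80), and 4 of 8 fell with P214L (median -0.25). Of all genes, 18.2%, 20.7% and 1.61% fell in these comparisons. Their summed level ran from 2017 to 2069.8 CPM in I209S P214L, 2937 to 2984 CPM in P214L, 2027 to 2241 CPM in WT and 3551 to 3570.1 CPM in ZsGreen libraries, in the same order as the synthetases. With WT, Kif11, a motor of the mitotic spindle, changed by -0.83, Ccnb1, a mitotic cyclin, by -0.88, Mki67, a marker of cycling cells, by -0.76 and Top2a, a topoisomerase of dividing cells, by -0.68. The part of cell cycling in the changes of amino acid genes was not tested.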

How the data were processed

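RNA of 12 Ba/F3 libraries (4 groups of 3) was measured by poly-A sequencing, per the labels' protocols. Reads were aligned to mm39 with HISAT2 2.0.5 and counted per gene with featureCounts 1.5.0-p3, per the submitters' processing notes. The labels' protocols cover library kits with and without strand marking, so strandedness is unknown; the strand setting and annotation release are not given in the sources used here. The authors deposited a raw count and an FPKM per gene and library; the deposited FPKM values were used only to compare levels between genes. Gene length, in bases, is in the table per the file headers.

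The deposited counts were tested with edgeR 4.0.16 under R 4.3.3. The filterByExpr step left 14794 genes, TMM set the scaling, and the 12 libraries shared 1 quasi-likelihood fit with a coefficient per group. P-values were adjusted by Benjamini-Hochberg across the tested genes, and a gene was called under 0.05. Intervals are 95% intervals from the fit. The procedure was tested on simulated counts in which few genes changed, and in a single group, whereas many genes were called here. No 2 libraries were the same within sampling noise (chi-square per degree of freedom of at least 5.93 between replicates). Alternatives were DESeq2 1.42.0, limma-voom (limma 3.58.1), other scalings and filters, a fit of only the groups compared, a replicate block and left-out libraries, 22 in all.

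The genes and lists were chosen with earlier results of these data known. Values per library are given for the called genes with the largest change with WT in each role, those called with P214L against ZsGreen, and those whose call differed between I209S P214L and WT; of other lists, at most the 4 genes with the smallest adjusted p for WT against ZsGreen are named. Promoters are from RefSeq, GRCm38.p6.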

Additional observations from a re-analysis of the deposited data

How the results depend on the processing

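Of 115 called pairs of gene and comparison, 95 were called under all 22 alternatives, and no called change reversed its sign. The number of genes called for P214L against ZsGreen, 6 of 41, became 10 with DESeq2, 15 in a fit of only those groups, 15 without WT 1 and I209S P214L 1, 13 without these and ZsGreen 1, and 2 to 11 with 1 library left out. Over all genes that comparison gave 751 calls, 1188 with DESeq2, 1224 without WT 1 and I209S P214L 1, and 369 to 960 with 1 library left out. For I209S P214L against WT, over all genes, 5 calls became 18 with DESeq2, 3 with limma-voom, 38 without the low-count filter, 3 in a fit of only those groups, 8 without the first libraries of ZsGreen, WT and I209S P214L, and 1 to 6 with 1 library left out; 2 of 4 calls were higher with RLE or upper-quartile scaling, against 2 of 5. For the 41 genes this comparison stayed at 0 calls under each alternative. With 1 library left out the other counts ran from 29 to 31 (WT against ZsGreen), 30 to 33 (I209S P214L against ZsGreen), 17 to 22 (P214L against WT), 23 to 27 (I209S P214L against P214L) and 30 to 33 (any difference). With a replicate block, 32 genes were called for WT against ZsGreen, 34 for I209S P214L against ZsGreen and 22 for P214L against WT; no call was lost. The correlation of deviations between same-numbered libraries was over 0.1 in 2 of 18 pairs. Both were of I209S P214L with WT, at 0.528 for replicate 1 and 0.254 for replicate 3. Replicate 2 of these groups stood at 0.079. Whether the replicate numbers pair libraries of these groups is not known. The cause of the changes in the counts of calls was not tested. Depth was not varied.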
